A study of Mus musculus with 6 samples.

Results

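Syndecans and glypicans are the main proteoglycans that anchor heparan sulphate at the cell surface. The members described here are the 4 syndecan genes of the mouse (Sdc1, Sdc2, Sdc3 and Sdc4) and its 6 glypican genes (Gpc1 to Gpc6), chosen by name, which makes 10 of the 55487 genes counted. They were read in RNA-seq libraries from cerebella of male mice at postnatal day 14. The KO group held 3 mice homozygous for the Galnt17 (formerly Wbscr17) knockout allele Galnt17tm1.1(KOMP)Vlcg, and the WT group held 3 wild-type B6C3 mice without it. Galnt17 encodes a member of the enzyme family that starts mucin-type O-glycosylation by adding N-acetylgalactosamine to proteins. The allele came into C57BL/6J through knockout sperm, no homozygote was born alive on C57BL/6, and live homozygotes were obtained after breeding to B6C3, a hybrid of C57BL/6J with C3H/He. The allele is not restricted to a cell type, and the labels do not say whether the KO and WT mice were littermates, so the knockout and any difference in strain background cannot be told apart. Each library came from 1 animal, and nothing more is said about how the animals of a group were related.

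Syndecans cross the membrane once and end in a short cytoplasmic tail, whereas glypicans are held in the outer leaflet by a lipid anchor. Both carry heparan sulphate chains, long sulphated sugar polymers that bind growth factors, morphogens, matrix proteins and synaptic adhesion receptors, and present them to their signalling receptors. In the developing brain, cell-surface heparan sulphate takes part in neuronal migration, axon growth and synapse formation, and in the cerebellum it bears on the growth factors that drive granule cell precursors. The outer part of Sdc3 has a stretch rich in serine, threonine and proline of the kind that carries mucin-type O-glycans, and these proteoglycans are candidate substrates of such an enzyme. The counts measure transcripts and say nothing about the glycosylation of the proteins.

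The libraries held 17111611 to 29840046 counts in genes. Galnt17, the targeted gene on chromosome 5 (130872082 to 131308497, minus strand, GRCm38), was read at 2.41, 3.44 and 3.13 CPM in the KO libraries and at 46.3, 42.8 and 46.8 CPM in the WT libraries. CPM are counts scaled to a common library size (TMM), and values of single libraries are given throughout in the order of replicates 1, 2 and 3, which are names and pair nothing. The Galnt17 groups were far apart, at a log2 fold change of -3.94 ± 0.12 (SE, KO over WT), so every library went with its label. Marker genes of Purkinje cells, granule cells and Bergmann glia were detected in all 6 libraries, and some marker sets differed between the groups. WT replicate 1 stood apart in GC content: the Spearman correlation across genes of its deviation from the mean log2 CPM with GC content was -0.22, beside -0.07 to 0.14 in the other libraries. Unmapped reads made up 13.8% to 17.2% of all reads in KO libraries and 6.52% to 10% in WT libraries. Over the 18237 genes that passed the filter on low counts, 302 were called in edgeR's quasi-likelihood test at an adjusted p below 0.05, 143 higher and 159 lower in KO, which is 1.66% of those tested (0.784% higher and 0.872% lower).

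No member was called in edgeR: 0 of 10 passed, beside 1.66% of all genes tested. DESeq2 called 1 member, beside 2.85% of all genes it tested, and limma-voom 0, beside 1.71%. All 10 had passed the filter, so every member was tested. The groups overlapped for 8 of them. Gpc4 and Gpc5 were lower in all 3 KO libraries than in any WT library and were the only members with an unadjusted p below 0.05. Among all genes, 17.6% had such a p and 23.7% had groups that did not overlap (12.2% lower in KO), so 2 of 10 members is near the share of all genes.

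Gpc4 encodes a glypican that cultured rodent astrocytes secrete and that brings AMPA-type glutamate receptors to young synapses. It lies on chromosome X (52053021 to 52165252, minus strand), next to Gpc3, with a gap of 0.107 Mb between them. Gpc5, whose human counterpart strengthens Hedgehog signalling in rhabdomyosarcoma cells, lies on chromosome 14 (115092215 to 116525179, plus strand), 0.4 Mb from Gpc6. The start regions of Gpc4 and Gpc5 are shown because these were the 2 members whose groups stood apart. They run from 250 bases before to 50 after the start that RefSeq gives, in GRCm38.p6, 5′ to 3′ on the strand of the gene. The gene positions above come from another annotation, and the Gpc4 window lies wholly inside them. It therefore does not reach the start of Gpc4 in that annotation. Capitals mark the GC box (GGGCGG on either strand, printed as CCGCCC where it lies on the other strand).
Gpc4, chrX:52164874-52165173, minus strand: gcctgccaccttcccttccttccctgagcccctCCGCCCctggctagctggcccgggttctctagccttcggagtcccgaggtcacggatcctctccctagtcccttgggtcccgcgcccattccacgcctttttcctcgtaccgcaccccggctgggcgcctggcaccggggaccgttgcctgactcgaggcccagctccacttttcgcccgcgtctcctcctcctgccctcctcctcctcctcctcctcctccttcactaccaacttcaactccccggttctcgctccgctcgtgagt
Gpc5, chr14:115091965-115092264, plus strand: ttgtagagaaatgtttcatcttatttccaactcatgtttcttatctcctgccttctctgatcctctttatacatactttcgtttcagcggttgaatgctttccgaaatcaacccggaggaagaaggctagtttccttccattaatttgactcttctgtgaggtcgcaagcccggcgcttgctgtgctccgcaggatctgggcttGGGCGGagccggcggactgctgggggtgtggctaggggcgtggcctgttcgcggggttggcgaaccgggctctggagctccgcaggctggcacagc
Each of these windows held 1 GC box, a motif found in 35.7% of the 32851 start regions of this length. The Gpc4 window held 22 CpG dinucleotides and the Gpc5 window 17, beside a median of 7 over all windows. TATAAA, searched on both strands, occurred once in the Gpc5 window and not in the Gpc4 window, and in 13.6% of all windows. Start regions were at hand for 7 of the 10 members, and the other 5 of these (Sdc1, Sdc3, Sdc4, Gpc2 and Gpc3) held 3 or 4 GC boxes and no TATAAA. A match of letters is a description and not a site of binding.

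Gpc4 stood at 6.23, 5.50 and 5.11 CPM in the KO libraries, against 6.92, 9.39 and 9.58 CPM in the WT libraries. The groups did not overlap, and WT replicate 1 lay closest to the KO libraries. The means were 5.62 ± 0.568 CPM in KO and 8.63 ± 1.48 CPM in WT (SD, n = 3 each), a fold of 0.656 with a 95% interval of 0.515 to 0.836. The log2 fold change was -0.61 ± 0.16 (SE, KO over WT) with an adjusted p of 0.0906 in edgeR's quasi-likelihood test, which does not pass 0.05. Its place by p was 607 among the 18237 genes. The direction was the same with each library left out in turn, at -0.75 to -0.52. Gpc4 passed in DESeq2 (adjusted p 0.0456), in the fit with no filter on low counts (0.00513) and without WT replicate 1 (0.00828), and its adjusted p was 0.0929 to 0.315 in the other settings. Without WT replicate 1 the background also changed, with 10.5% of the genes called in place of 1.66% (5.24% lower in KO), in DESeq2 it was 2.85%, and with no filter it was 4.85%.

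Gpc5 stood at 4.26, 5.46 and 4.02 CPM in the KO libraries, against 5.71, 6.57 and 10.9 CPM in the WT libraries. The groups did not overlap, but KO replicate 2 lay close to WT replicate 1, and WT replicate 3 was the highest by far. The means were 4.58 ± 0.771 CPM in KO and 7.74 ± 2.80 CPM in WT (SD, n = 3 each), a fold of 0.592 with a 95% interval of 0.411 to 0.855. The log2 fold change was -0.76 ± 0.24 (SE, KO over WT), and the adjusted p in edgeR's quasi-likelihood test was 0.144. Without WT replicate 3 the log2 fold change was -0.41 (adjusted p 0.265), so the size fitted for Gpc5 moves with that library. Gpc5 passed without WT replicate 1 (log2 fold change -0.95, adjusted p 0.0226) and with no filter on low counts (adjusted p 0.000473), and in no other of the 12 settings tried, where its adjusted p was 0.0602 to 0.394.

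Several marker sets of cell types and neighbouring tissue also differed between the groups, in both directions. The summed level of 12 choroid plexus markers came to 241, 537 and 801 CPM in the KO libraries, against 1635, 2561 and 2934 CPM in the WT libraries. Of the 12, 9 were called lower in KO and none was at 0 counts in any library. The summed level of 14 genes of brainstem and spinal cord neurons, a list chosen after values had been seen, was 2.41, 1.72 and 2.33 CPM in KO libraries and 5.14, 4.63 and 16.5 CPM in WT libraries. Between 4 and 8 of these genes were at 0 counts in a KO library, and 1 was in each WT library. Counts were high enough for a test in 2 of the 14, and both had an unadjusted p below 0.05 without being called. Within WT, the choroid plexus sum, Gpc4 and Gpc5 all rose from replicate 1 to replicate 3. The brainstem and cord sum was highest in WT replicate 3 and lowest in WT replicate 2. Within KO, the choroid plexus sum was highest in replicate 3 and Gpc4 in replicate 1. The brainstem and cord sum was lowest in KO replicate 2, where Gpc5 was highest. Oligodendrocyte precursor markers, 8 in all, summed to 607, 604 and 593 CPM in KO and 619, 629 and 750 CPM in WT, with 0 called in edgeR and 5 lower at an unadjusted p below 0.05. Astrocyte and Bergmann glia markers, 11 in all, summed to 4277, 4379 and 4321 CPM in KO and 4352, 4176 and 4216 CPM in WT, with 0 called and 1 lower and 1 higher at that unadjusted level. Purkinje cell markers were higher in KO, at 5554, 5618 and 5714 CPM in KO and 4862, 4545 and 4721 CPM in WT, with 3 of 10 called higher. Mature oligodendrocyte markers were higher too, at 14450, 14351 and 13796 CPM in KO and 12502, 12646 and 12633 CPM in WT, with 2 of 9 called higher. Of 9 cerebellar interneuron markers 1 was called lower and 0 higher. Of 9 granule cell precursor markers 0 were called, with 3 lower and 1 higher at an unadjusted p below 0.05. The part of neighbouring tissue or of a change in cell makeup in the Gpc4 and Gpc5 values was not tested. In such bulk samples fewer cells of a type and less RNA per cell cannot be told apart.

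**Figure D1:**
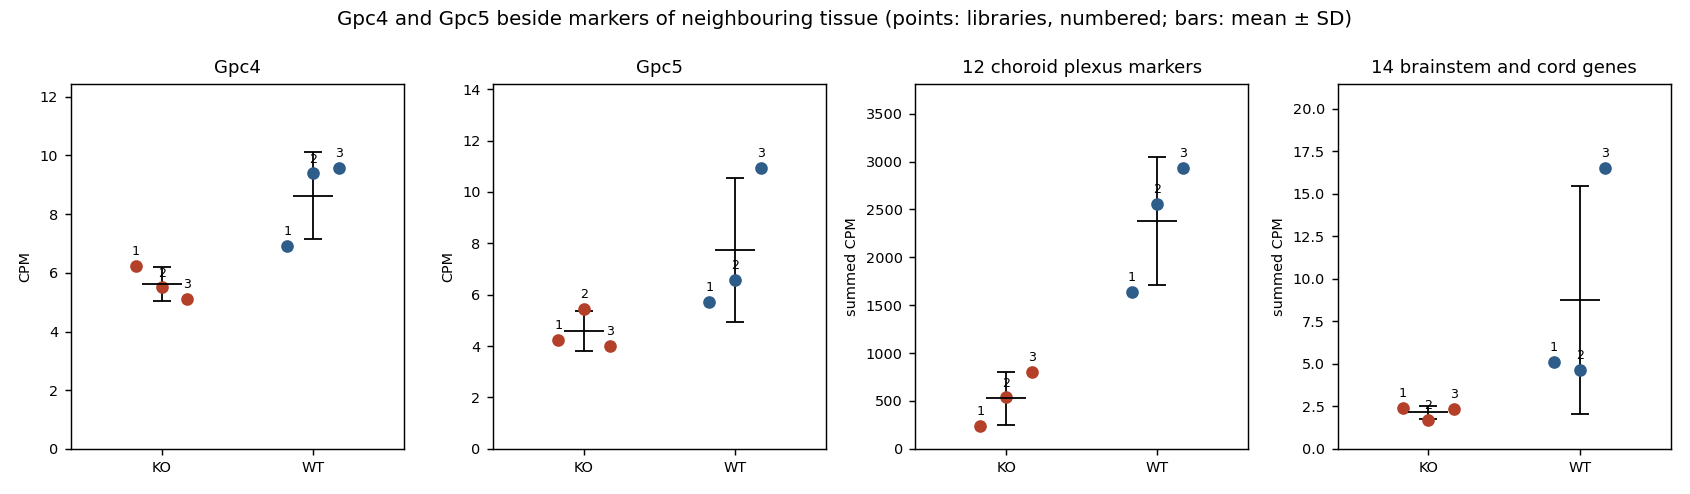
CPM of Gpc4 and Gpc5 and summed CPM of 12 choroid plexus markers and 14 brainstem and spinal cord genes, in KO (left) and WT (right) of each panel, with points for single libraries numbered by replicate and bars for mean ± SD (n = 3 each). In each panel the KO points lie below the WT points. Within KO the order of the libraries differs between the panels. Within WT the order is the same for Gpc4, Gpc5 and the choroid plexus markers, and differs for the brainstem and spinal cord genes.

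Among all other tested genes with a mean of at least 1 CPM, those whose profile over the 6 libraries lay closest to that of Gpc4 were Chrm3, Epb41l4a and Hcrtr2. Closeness was the root mean square difference of log2 CPM after each gene was centred on its own mean, and it was 0.05, 0.0697 and 0.0806 for these genes. Chrm3, a muscarinic acetylcholine receptor, had 7.93 ± 0.419 CPM in KO and 11.8 ± 1.83 CPM in WT (SD, n = 3 each). For Gpc5 the closest were Dmrtb1, Cfap54 and Tshz2, at 0.0667, 0.0900 and 0.0974. Tshz2, a zinc finger protein, had 10.1 ± 1.52 CPM in KO and 16.5 ± 5.80 CPM in WT (SD, n = 3 each). Of these 6 genes 0 were called in edgeR's test (adjusted p 0.0675 to 0.268), and all 6 had an unadjusted p below 0.05, which their choice for likeness to Gpc4 and Gpc5 fixes.

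Gpc3 and Gpc6, the members closest to Gpc4 and Gpc5 on their chromosomes, did not stand apart between the groups. This covers members only, and Hs6st2, a companion gene near Gpc4 on chromosome X, is given below. Gpc3, which restrains Hedgehog signalling in mouse embryos and whose loss in people causes an overgrowth syndrome (chromosome X, 52272426 to 52613950, minus strand), stood at 4.29, 3.95 and 2.48 CPM in the KO libraries, against 3.48, 4.11 and 6.27 CPM in the WT libraries. The groups overlapped, with the lowest value in KO replicate 3 and the highest in WT replicate 3. The fold of Gpc3 had a 95% interval of 0.526 to 1.17, which holds both the fold of Gpc4 and 1. Gpc6, which cultured astrocytes also secrete (chromosome 14, 116925315 to 117976544, plus strand), had 14.9, 15.6 and 17.8 CPM in KO and 16.2, 14.9 and 18.2 CPM in WT. Its means were 16.1 ± 1.52 CPM in KO and 16.4 ± 1.65 CPM in WT (SD, n = 3 each), and the interval of its fold was 0.828 to 1.15.

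Gpc2, known as cerebroglycan and found in rat on neurons that migrate or extend axons, had the largest fitted difference upward among the members. It stood at 4.62, 4.38 and 4.82 CPM in the KO libraries, against 4.60, 3.40 and 2.04 CPM in the WT libraries. The KO libraries lay close together, and WT replicate 1 lay among them while the other WT libraries were lower. The log2 fold change was 0.45 ± 0.25 (SE, KO over WT) with an adjusted p of 0.369 in edgeR's quasi-likelihood test. It passed in 1 setting, without WT replicate 1, at 0.77 (adjusted p 0.0472), and it was 0.19 without WT replicate 3. In the settings where Gpc2 did not pass, its adjusted p was 0.238 to 0.643. Gpc2 lies on chromosome 5 (138273655 to 138280005, minus strand), 6.97 Mb from Galnt17. Within 10 Mb of Galnt17, 297 genes were tested and 3 were called higher and 2 lower, or 1.68%, close to the 1.66% of all genes, and strain sequence carried along with the allele cannot be told apart from the knockout there.

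The Gpc2 value stands for only part of its transcript. The annotated gene Gm43720 runs over Gpc2 on the same strand and shares 2376 of the exon bases of Gpc2, or 55.6%. Of the coding transcript Gpc2-205 it shares 91.9%, so reads there cannot be assigned to 1 gene, and most exon bases left to Gpc2 belong to its intron-retaining transcripts. Gpc1 shares 18.9% of its exon bases with Ankmy1 on the other strand, Sdc3 shares 6.93% with Gm26716, and Gpc5 shares 2.4% with Gm20713. The libraries were not stranded, so reads in those parts cannot be told apart either.

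Gpc1, the glypican found on axons of many adult neurons (chromosome 1, 92831645 to 92860779, plus strand), stood at 72.4, 67.0 and 62.7 CPM in the KO libraries, against 63.6, 80.7 and 76.7 CPM in the WT libraries. WT replicate 1 was the lowest of the WT libraries and fell among the KO libraries. The means were 67.4 ± 4.86 CPM in KO and 73.7 ± 8.93 CPM in WT (SD, n = 3 each), with a 95% interval of the fold of 0.801 to 1.05. Gpc1 passed in no setting, and its lowest adjusted p was 0.0565.

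The syndecans overlapped between the groups in every case. Sdc3, or N-syndecan, the syndecan of neurons and axons and a receptor for pleiotrophin (chromosome 4, 130792537 to 130826319, plus strand), stood at 324, 300.1 and 269 CPM in the KO libraries, against 289, 339 and 318 CPM in the WT libraries. These libraries interleaved, with means of 298 ± 27.1 CPM in KO and 315 ± 25.0 CPM in WT (SD, n = 3 each). The log2 fold change of Sdc3 was -0.08 ± 0.08 (SE, KO over WT; adjusted p 0.626 in edgeR's test). The 95% interval of its fold was 0.835 to 1.07.

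Sdc4, a syndecan of focal adhesions that binds protein kinase C alpha (chromosome 2, 164424247 to 164443887, minus strand), had 52.0, 53.6 and 61.9 CPM in KO and 59.6, 51.5 and 48.0 CPM in WT. Its highest and its lowest library were KO replicate 3 and WT replicate 3, and the interval of its fold was 0.914 to 1.21. Sdc2, linked to dendritic spine formation in cultured rat neurons (chromosome 15, 32920723 to 33034935, plus strand), had 33.9, 30.4 and 27.9 CPM in KO and 33.5, 31.4 and 36.0 CPM in WT. The interval of its fold was 0.801 to 1.04. Sdc1, best known from epithelia and plasma cells (chromosome 12, 8771323 to 8793715, plus strand), had 9.32, 6.36 and 9.63 CPM in KO and 7.91, 9.39 and 8.70 CPM in WT. KO replicate 2 was its lowest library, and without it the log2 fold change turned to 0.13 where all libraries gave -0.03. With 148 to 278 counts per library, Sdc1 was read at an interval of 0.760 to 1.25.

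**Figure D2:**
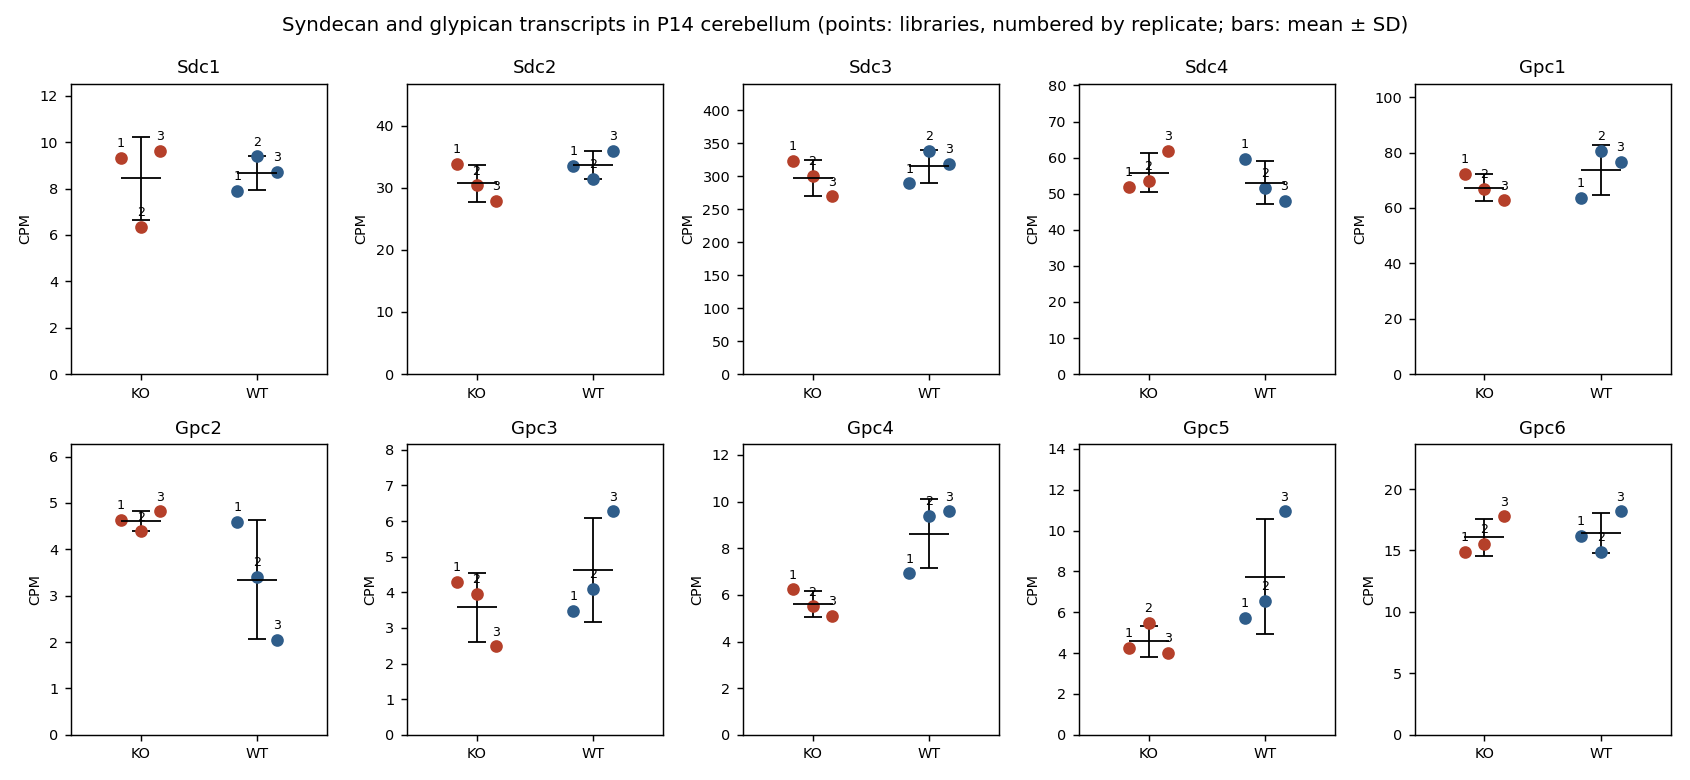
CPM of each member in KO (left) and WT (right), with points for single libraries numbered by replicate and bars for mean ± SD (n = 3 each); every axis starts at 0. The KO and WT points overlap in 8 panels, and the KO points lie below the WT points in the panels of Gpc4 and Gpc5.

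The members differed in depth and in the spread between animals, and both enter the errors. Sdc3 had 5427 to 9655 counts per library and a standard error of 0.08 on the log2 scale, as small as that of any member. Gpc2, Gpc3, Gpc4 and Gpc5 had 42 to 225 counts per library and standard errors of 0.16 to 0.26. The log2 fold change fitted for Gpc3, -0.35, had a 95% interval of -0.93 to 0.22, which holds 0. The median log2 fold change was -0.06 over the syndecans and -0.24 over the glypicans, beside -0.01 over all tested genes.

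**Figure D3:**
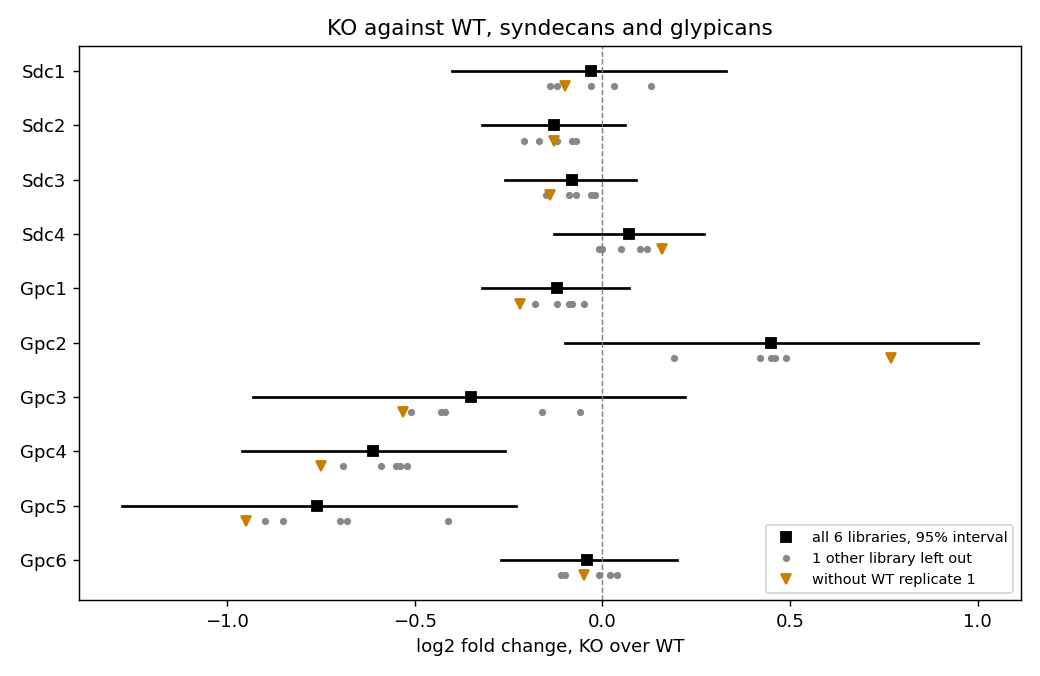
Log2 fold change of each member (KO over WT) from edgeR's fit with all 6 libraries (squares, with 95% interval), with 1 other library left out (grey dots) and without WT replicate 1 (triangles). The intervals of Gpc4 (-0.96 to -0.26) and Gpc5 (-1.28 to -0.23) lie below 0, and those of the other members span 0.

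To set the members beside each other, counts were divided by the exon bases that no other gene shares (RPKM, counts per kilobase after scaling to a common library size). Sdc3 was the most abundant member in all 6 libraries, with a mean of 55.5 RPKM and a range of 48.8 to 61.3. Sdc4 followed at 21.4 RPKM (18.8 to 24.3), and Gpc1 at 16.9 RPKM (15 to 19.3) was the leading glypican. Their ranges overlapped, but Sdc4 was above Gpc1 in 6 of 6 libraries. Sdc2 came next at 9.12 RPKM (7.9 to 10.2), with no overlap with Gpc1 above it or Gpc4 below it.

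The other members lay between 1.42 and 2.69 RPKM, in the order Gpc4, Gpc6, Sdc1, Gpc2, Gpc3 and Gpc5, and each neighbouring pair in that order overlapped in range. Gpc4 was above Gpc6 in 4 libraries and Gpc3 above Gpc5 in 3. Only the group means of Gpc4 and Gpc6 changed order. Gpc4 averaged 2.12 ± 0.214 RPKM in KO and 3.25 ± 0.560 RPKM in WT (SD, n = 3 each). Gpc6 averaged 2.50 ± 0.236 RPKM in KO and 2.56 ± 0.257 RPKM in WT. In KO replicate 1 Gpc4 was also above Gpc6, at 2.35 and 2.32 RPKM. The place of Gpc2 rests on the unshared part of its exons.

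Summed over the syndecans, the level was 86.7 ± 3.86 RPKM in KO and 89.7 ± 2.90 RPKM in WT (SD, n = 3 each). Summed over the glypicans it was 25.5 ± 1.46 RPKM in KO and 28.7 ± 2.89 RPKM in WT. Both sums overlapped between the groups. Sdc3 alone made up 47.9% ± 2.28 of the sum over all members in KO and 48.2% ± 1.73 in WT. Gpc4 made up 1.88% ± 0.101 in KO and 2.74% ± 0.373 in WT, and Gpc5 0.94% ± 0.165 in KO and 1.5% ± 0.523 in WT.

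**Figure D4:**
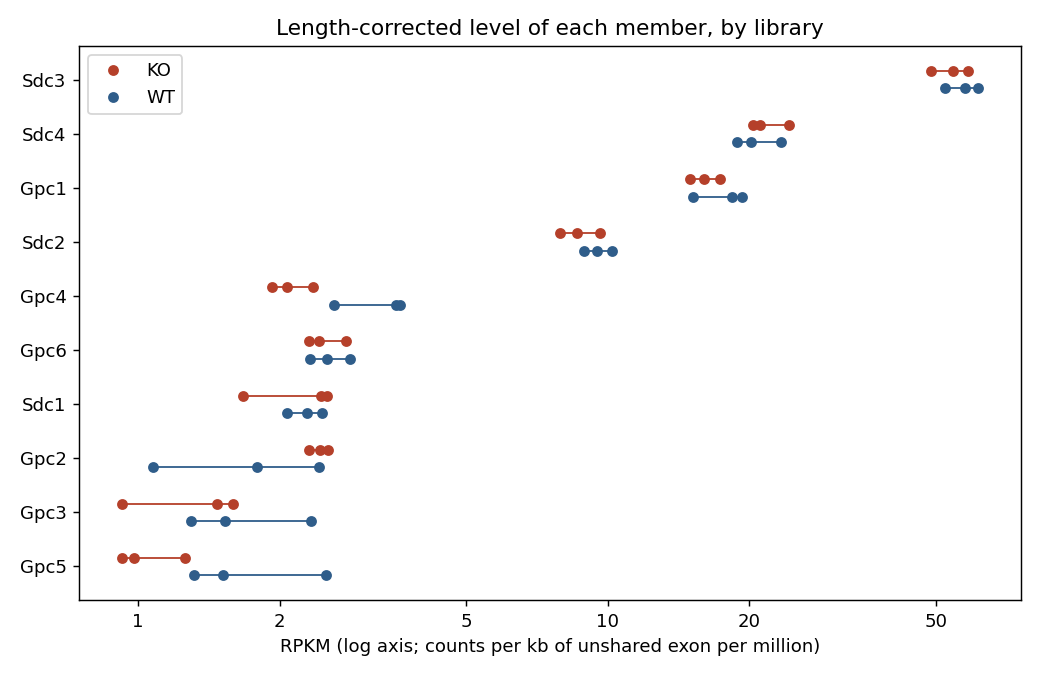
Level of each member in RPKM on a log axis, with points for KO (upper row) and WT (lower row) libraries and lines for their range, ordered by the mean over all 6 libraries. Sdc3 lies at 48.8 to 61.3 RPKM, clear of the rest, and the 6 lowest members lie between 0.923 and 3.61 RPKM.

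The genes that build, modify, release and bind the same chains were followed in 8 lists of 91 genes, of which 86 were tested. In edgeR 0 of these genes were called, beside 1.66% of all genes, and limma-voom called 0. DESeq2 called 3 (Sulf1, Ezr and Gpr158, all lower in KO), beside 2.85% of all genes it tested. Without WT replicate 1, 11 passed, where 10.5% of all genes were called. At an unadjusted p below 0.05 there were 22 (3 higher and 19 lower in KO), or 25.6% of those tested, beside 17.6% of all genes (8.57% higher and 8.99% lower). The median log2 fold change over the lists was -0.04.

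Of the 11 genes that start and extend the chain, 4 were lower in KO at an unadjusted p below 0.05 and none was higher. Ext1 and Ext2, which together form the polymerase of the chain, were among them. Ext1 stood at 42.7, 44.1 and 42.2 CPM in the KO libraries, against 48.0, 47.6 and 47.8 CPM in the WT libraries. Ext2 averaged 41.6 ± 1.55 CPM in KO and 50.2 ± 3.27 CPM in WT (SD, n = 3 each). Neither pair of groups overlapped, and the fitted differences were small, at log2 fold changes of -0.15 for Ext1 and -0.27 for Ext2 (adjusted p 0.183 and 0.0764 in edgeR's test).

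Of the 14 tested genes for sulphation and epimerisation, 5 were lower and 0 higher at that unadjusted level. Ndst4, an N-deacetylase/N-sulphotransferase, had the smallest p of the list, with 3.71 ± 0.0463 CPM in KO and 8.31 ± 5.39 CPM in WT (SD, n = 3 each). The WT libraries ranged from 5.01 to 14.5 CPM, with the highest value in WT replicate 3. Among more abundant enzymes of the list, Ndst1 averaged 162 ± 6.59 CPM in KO and 152 ± 7.79 CPM in WT (adjusted p 0.421), and the 2-O-sulphotransferase Hs2st1 54.8 ± 0.479 CPM in KO and 54.3 ± 2.43 CPM in WT (adjusted p 0.925). Hs6st1, a 6-O-sulphotransferase, averaged 68.4 ± 3.46 CPM in KO and 71.7 ± 7.05 CPM in WT (adjusted p 0.69). Hs6st2, of the same step and named after its values were seen, had 24.9 CPM in its highest KO library and 25.9 CPM in its lowest WT library. Its groups therefore did not overlap (log2 fold change -0.22, adjusted p 0.221 in edgeR's test). Hs6st2 lies near Gpc4 on chromosome X (51387212 to 51681856, minus strand), on the side away from Gpc3. Whether its lower level and that of Gpc4 share a local cause was not tested.

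Sulf1 and Sulf2 remove 6-O-sulphates from finished chains outside the cell. Sulf1 stood at 6.30, 8.21 and 11.1 CPM in the KO libraries, against 13.5, 11.3 and 18.6 CPM in the WT libraries, with a log2 fold change of -0.78 (adjusted p 0.112 in edgeR's test). The Sulf1 groups did not overlap, while those of Sulf2 did, at 47.2 ± 3.90 CPM in KO and 59.7 ± 14.6 CPM in WT (SD, n = 3 each). Of the 11 tested genes for trimming and breakdown, 3 were lower at an unadjusted p below 0.05. Among the 8 tested genes for shedding and release from the membrane 1 was, the matrix metalloproteinase Mmp2, with 5.29 ± 0.102 CPM in KO and 7.27 ± 1.83 CPM in WT (adjusted p 0.218).

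The partners of the syndecan tail numbered 9, of which 1 was lower at that level. This was Ezr, a linker of membrane proteins to actin, with 44.9 ± 1.26 CPM in KO and 58.0 ± 7.88 CPM in WT (log2 fold change -0.37, adjusted p 0.0768 in edgeR's test). Syntenin (Sdcbp), which binds the tail of all syndecans, averaged 156 ± 0.692 CPM in KO and 153 ± 11.9 CPM in WT (adjusted p 0.818). Pleiotrophin (Ptn), a ligand of Sdc3, averaged 456 ± 10.6 CPM in KO and 432 ± 12.2 CPM in WT (adjusted p 0.486). Midkine (Mdk), its relative, averaged 36.0 ± 1.44 CPM in KO and 33.0 ± 2.19 CPM in WT (adjusted p 0.362). Fgf1 had the smallest p of the 12 tested ligands, at 69.6 ± 0.285 CPM in KO and 79.8 ± 1.36 CPM in WT (log2 fold change -0.20, adjusted p 0.0767 in edgeR's test).

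The receptors include 3 that bind the members or their chains at synapses. Gpr158, which binds Gpc4 at hippocampal mossy fibre synapses in mice, had the smallest p of the 11, at 117 ± 3.82 CPM in KO and 142 ± 16.4 CPM in WT. Its log2 fold change was -0.29 (adjusted p 0.103 in edgeR's test), on the same side as that of Gpc4. Lrrtm4, another partner of Gpc4, averaged 2.90 ± 0.545 CPM in KO and 2.60 ± 0.702 CPM in WT (adjusted p 0.742). Ptprs, a receptor phosphatase that binds heparan sulphate on glypicans, averaged 504 ± 16.6 CPM in KO and 454 ± 19.1 CPM in WT (adjusted p 0.222). Of the 10 other proteoglycans that carry these chains, agrin (Agrn) was the one with an unadjusted p below 0.05, at 151 ± 6.50 CPM in KO and 133 ± 14.2 CPM in WT (adjusted p 0.256).

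**Figure D5:**
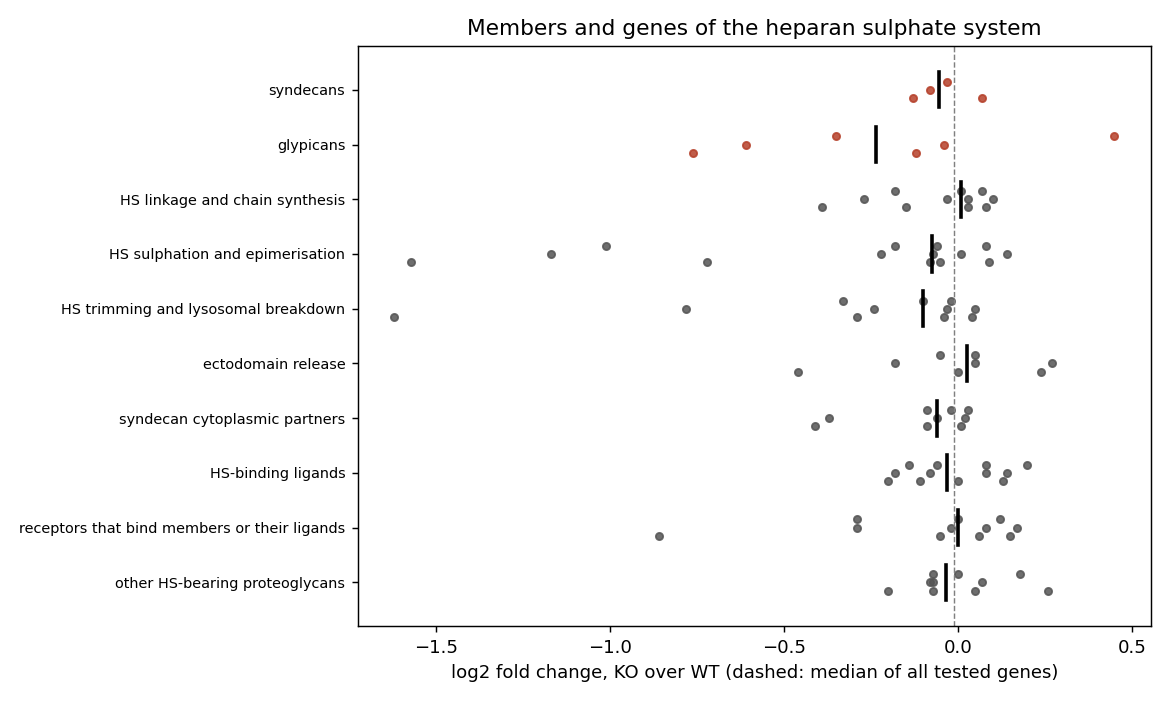
Log2 fold change (KO over WT) of each tested member (red) and of each tested gene of the 8 companion lists (grey), with a bar for the median of each row and a dashed line at -0.01, the median of all tested genes. The medians of the companion lists lie between -0.1 and 0.03, and single genes reach -1.62.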

How the data were processed

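The authors deposited 1 table of raw read counts for each library. Per the submitters' processing notes, these came from STAR 2.7.5a on the GRCm38 (mm10) genome, with Ensembl release 102 genes as the file names state. STAR counting options were not given in the sources used here. The unstranded column was used and 2 strand columns per library were not. Reads that were unmapped (6.52% to 17.2%), multimapping (3.72% to 4.29%), outside genes (6.94% to 9.3%) or ambiguous (3.95% to 4.44%) stayed out. Reads were 150 bases, paired, from TruSeq RNA libraries, per the labels' protocols.

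Groups came from the strain label. Library totals (17111611 to 29840046 counts) and the spread between 3 animals a group set the precision. KO was tested against WT in edgeR 4.0.16 (R 4.3.3; TMM; two-sided quasi-likelihood F test; Benjamini-Hochberg over 18237 genes; filter of 10 counts and 15 in total; call below 0.05). SEs and intervals came from its F statistics. CPM and RPKM were computed here, with positions and exon lengths from the mouse GENCODE release M21 (GRCm38). This is an earlier annotation than that of the files, and it matched 55141 of 55487 identifiers. Start regions came from RefSeq (GRCm38.p6). Alternatives were DESeq2 1.42.0, RLE factors, other filters, limma-voom (limma 3.58.1), a GC offset and leaving out each library. The fit was tested on simulated data with 50 changed genes at each fold. It recovered 66% of those changed 1.5-fold, 80% at 2-fold and 100% at 4-fold, with 17 false calls.

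The members, lists and tests were chosen with earlier results of these data known. Named were all members, Galnt17, the companion gene with the smallest p of each list, 13 preset examples, and 3 genes of most similar profile for each of Gpc4 and Gpc5.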

Additional observations from a re-analysis of the deposited data

How the results depend on the processing

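No paired analysis was possible because the labels number no replicates, and the numbers 1 to 3 used here follow accession order as names. The 302 calls over all genes became 566 in DESeq2, 1623 with no filter on low counts (4.85% of the genes then tested) and 81 to 1921 with 1 library left out, the top value without WT replicate 1. Calls were 81, 118, 125 and 137 without KO replicates 2, 1 and 3 and WT replicate 2, and 275 to 343 under the other settings. Of the members, 0 were called, against 1 in DESeq2, 2 with no filter and 0 to 3 with 1 library left out (3 without WT replicate 1). The shares of all genes called were 2.85% in DESeq2, 4.85% with no filter and 0.441% to 10.5% with 1 library left out (10.5% without WT replicate 1). Of the companion genes, 0 were called, against 3 in DESeq2, 13 with no filter and 0 to 11 with 1 library left out (11 without WT replicate 1). Gpc4 and Gpc5 were lower in KO, and Gpc2 higher, under all 12 alternatives. With 1 library left out the log2 fold change turned sign for 3 members: Sdc1 (range -0.14 to 0.13; 0.13 without KO replicate 2 and 0.03 without WT replicate 2), Sdc4 (range -0.01 to 0.16; -0.01 without KO replicate 3) and Gpc6 (range -0.11 to 0.04; 0.02 without KO replicate 1 and 0.04 without WT replicate 3). The causes were not tested. WT libraries varied more than KO libraries (median SD of log2 CPM 0.10 in WT and 0.05 in KO). The glypicans with the fewest counts (Gpc2, Gpc3, Gpc4 and Gpc5) had 42 to 225 counts per library.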

Other observations

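Chosen after their values were seen, the 3-O-sulphotransferases Hs3st2 and Hs3st4 had, as Gpc5 and Ndst4 did, their highest value in WT replicate 3. Hs3st2 stood at 2.04, 1.38 and 1.94 CPM in the KO libraries, against 2.03, 2.87 and 5.98 CPM in the WT libraries (replicates 1, 2 and 3). Hs3st4 stood at 7.44, 4.81 and 6.50 CPM in KO and 7.95, 8.62 and 14.4 CPM in WT. The KO and WT libraries overlapped for Hs3st2 and not for Hs3st4, KO replicate 2 was the lowest library of both while it was the highest KO library of Gpc5, and neither passed in edgeR's test (adjusted p 0.195 for Hs3st2 and 0.155 for Hs3st4). Cxcl12, a chemokine that binds heparan sulphate, was the one ligand higher in KO at an unadjusted p below 0.05, with 88.8 CPM in its lowest KO library and 85.5 CPM in its highest WT library (adjusted p 0.171).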
